A study of Mus musculus with 6 samples.

Results

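The 43 genes described here encode the proton pump of the lysosome (the V-ATPase), proteins of the lysosome membrane, the Ragulator and Rag GTPase machinery that senses nutrients on that membrane, and the TFEB family of transcription factors. They were taken from a fixed list of gene symbols, 43 of the 32879 genes with at least 1 RefSeq transcript record, and each of them had a record and passed the filter on low counts. They fall into 7 subgroups by role: 8 genes of the V1 domain, 8 of the V0 domain with its accessory proteins, 9 of membrane glycoproteins and cholesterol export, 6 channels and transporters, 5 Ragulator subunits, 4 genes of the Rag GTPases and folliculin, and 3 of the TFEB family.

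RNA from sorted peritoneal macrophages (PMs) of 3 diseased-BWF1 mice and 3 control mice was sequenced, with 1 library per mouse. Diseased-BWF1 mice were females of the lupus-prone cross of NZB with NZW, aged 31, 31 and 34 weeks, and per the methods of the study they carried antibodies against double-stranded DNA and severe proteinuria. Control mice were females of the non-autoimmune cross of NZW with BALB/c, aged 33, 33 and 30 weeks, chosen by the study to carry the same H2 haplotype. The labels name no treatment, and both groups are first-generation hybrids that share the NZW parent, so the other parental strain and the disease cannot be told apart. PMs were sorted on F4/80 and CD11b among other markers, and RNA was prepared as stranded mRNA libraries.

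Lysosomes digest what a macrophage takes up, and they work only while acid. The V-ATPase acidifies them: its peripheral V1 domain hydrolyses ATP, and its membrane-bound V0 domain carries the protons across. The same membrane is the platform on which Ragulator and the Rag GTPases recruit the growth kinase mTORC1 when amino acids are present. TFEB, TFE3 and MITF, which mTORC1 holds in the cytoplasm, activate many lysosome genes through a short DNA element around the letters CACGTG.

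The letters CACGTG, and 2 longer forms given below, were looked for in the RefSeq promoters of the members (build GRCm38.p6). Each promoter ran from 250 bases before a listed start site to 50 after it. This site can differ from the outer coordinate of the gene. A promoter was found for 36 of the 43 members, 46 promoters in all, and 11 of them, 1 for each of 11 members, held CACGTG, which reads the same on both strands. This is 23.9% of the members' promoters, against 7.15% of the 32851 promoters in the table and 10.3% of the promoters of genes tested here. The form with T before CACGTG was also in 11 member promoters (23.9%), against 3.77% of all promoters and 6.29% for genes tested. The longest form, with GT before CACGTG and AC after it, was in 1 member promoter, that of Cln3. This is 2.17%, against 0.326% of all promoters and 0.742% for genes tested. The stretches below lie wholly before the listed start site, read 5′ to 3′ on the strand of the gene, with CACGTG in capitals. That of Atp6v1a lies inside the outer coordinates of its gene, and that of Clcn7 reaches into them. Atp6v1a and Clcn7 are shown because both were lower in diseased-BWF1 mice by at least one of the tests used, Lamp1 because it held the most copies, 4, Mcoln1 because it held 2, and Lamtor4 because it held 2 and its counts overlapped between the groups. Lamp1, Mcoln1 and Lamtor4 were chosen after their values were seen.
Atp6v1a, chr16:44139365-44139424, minus strand: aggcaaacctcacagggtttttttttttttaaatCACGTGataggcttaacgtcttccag
Clcn7, chr17:25133331-25133390, plus strand: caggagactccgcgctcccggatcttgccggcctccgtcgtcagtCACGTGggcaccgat
Lamp1, chr8:13159080-13159160, plus strand: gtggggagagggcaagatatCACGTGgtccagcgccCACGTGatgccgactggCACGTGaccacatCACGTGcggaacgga
Mcoln1, chr8:3500428-3500499, plus strand: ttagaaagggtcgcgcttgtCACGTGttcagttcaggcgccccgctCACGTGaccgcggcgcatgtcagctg
Lamtor4, chr5:138255342-138255403, plus strand: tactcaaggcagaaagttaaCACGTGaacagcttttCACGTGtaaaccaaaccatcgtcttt

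The deposited values are estimated counts per transcript record. They were summed per gene, and total counts ranged from 3629901 to 5003360 per mouse. Levels of single genes are given as normalized counts, that is, counts divided by DESeq2's size factors. The test was edgeR's quasi-likelihood test, and a gene was called at a Benjamini-Hochberg adjusted p under 0.05 over the 10505 genes tested and a change of at least 1.5-fold. The 3 mice of a group are separate animals, and p-values measure the spread among these mice only. In bulk RNA, fewer cells of a type and less RNA per cell cannot be told apart.

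The libraries carried the defining genes of large peritoneal macrophages. Adgre1, the gene for F4/80, had 7060 to 8562 normalized counts in the 6 mice, and Gata6, the transcription factor of resident peritoneal macrophages, had 262 to 454. Over the 6 mice, the summed normalized counts were 5.06 to 16.5 for T cell markers and 8.27 to 19.5 for neutrophil markers. B cell markers summed to 18.5 to 27.3 in control mice and 5.04 to 14.2 in diseased-BWF1 mice, low in both and with no overlap. The list of 6 monocyte markers differed in the other direction. It summed to 106 to 167 normalized counts in control mice and 383 to 525 in diseased-BWF1 mice, with no overlap. Of this list, 3 genes passed the filter on low counts, all 3 with a log2 fold change above 0 and a median of 1.43. Each of edgeR and DESeq2 called 1 of these 3 higher, against 0.4% and 1.16% of all genes. Ly6c2, the defining gene of classical monocytes, had at most 0.827 normalized counts in a control mouse and 0 in all 3 diseased-BWF1 mice. Ccr2 had 2.30 to 10.8 normalized counts in control mice and 6.08 to 31.3 in diseased-BWF1 mice. Of 10 macrophage markers, 6 had a log2 fold change below 0 and 4 above, up to 1.14. C1qa, Icam2, Timd4, Adgre1 and Lyz2 were lower in every diseased-BWF1 mouse than in every control mouse, which held for 11.2% of all genes. In 0 of the 10 did every diseased-BWF1 mouse lie above every control mouse. The part of these marker differences in the results that follow was not tested.

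Most of the 43 members had lower RNA levels in PMs of diseased-BWF1 mice than in those of control mice. Of the 43 genes, 39 had a log2 fold change below 0 (diseased-BWF1 over control), or 90.7%, against 49.1% of all genes tested. The median log2 fold change was -0.42, against 0.01 over all genes. In 28 members, or 65.1%, every diseased-BWF1 mouse lay below every control mouse, which held for 11.2% of all genes, and in 1 member every diseased-BWF1 mouse lay above, against 9.59%. Because the list was drawn up with results of these data known, these shares describe the members and are not a test of them.

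By gene, edgeR called 4 members lower and 0 higher, that is 9.30% of the members, against 0.819% of all genes lower, 0.4% higher and 1.22% in either direction. The members had a median level of 281 normalized counts, against 104 over all genes tested. Of the 2424 genes tested at or above the members' median level, 1.57% were called and 45.7% had a log2 fold change below 0. At an unadjusted p under 0.05, edgeR found 25 members lower and 0 higher, against 7.57% and 5.62% of all genes. The 4 called genes were Tfe3, Atp6v0a1, Slc17a5 and Atp6v1a, and they come from 4 of the 7 subgroups. DESeq2 at the same thresholds called 9 members lower, 20.9% against 2.24% of all genes, and 0 higher, against 1.16%. These 9 were the 4 genes above with Atp6v1b2, Cd63, Scarb2, Grn and Clcn7. When any 1 mouse was left out, edgeR called none of the 43 members in any of the 6 fits, and the adjusted p of the 4 genes then lay between 0.0599 and 0.176.

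**Figure D1:**
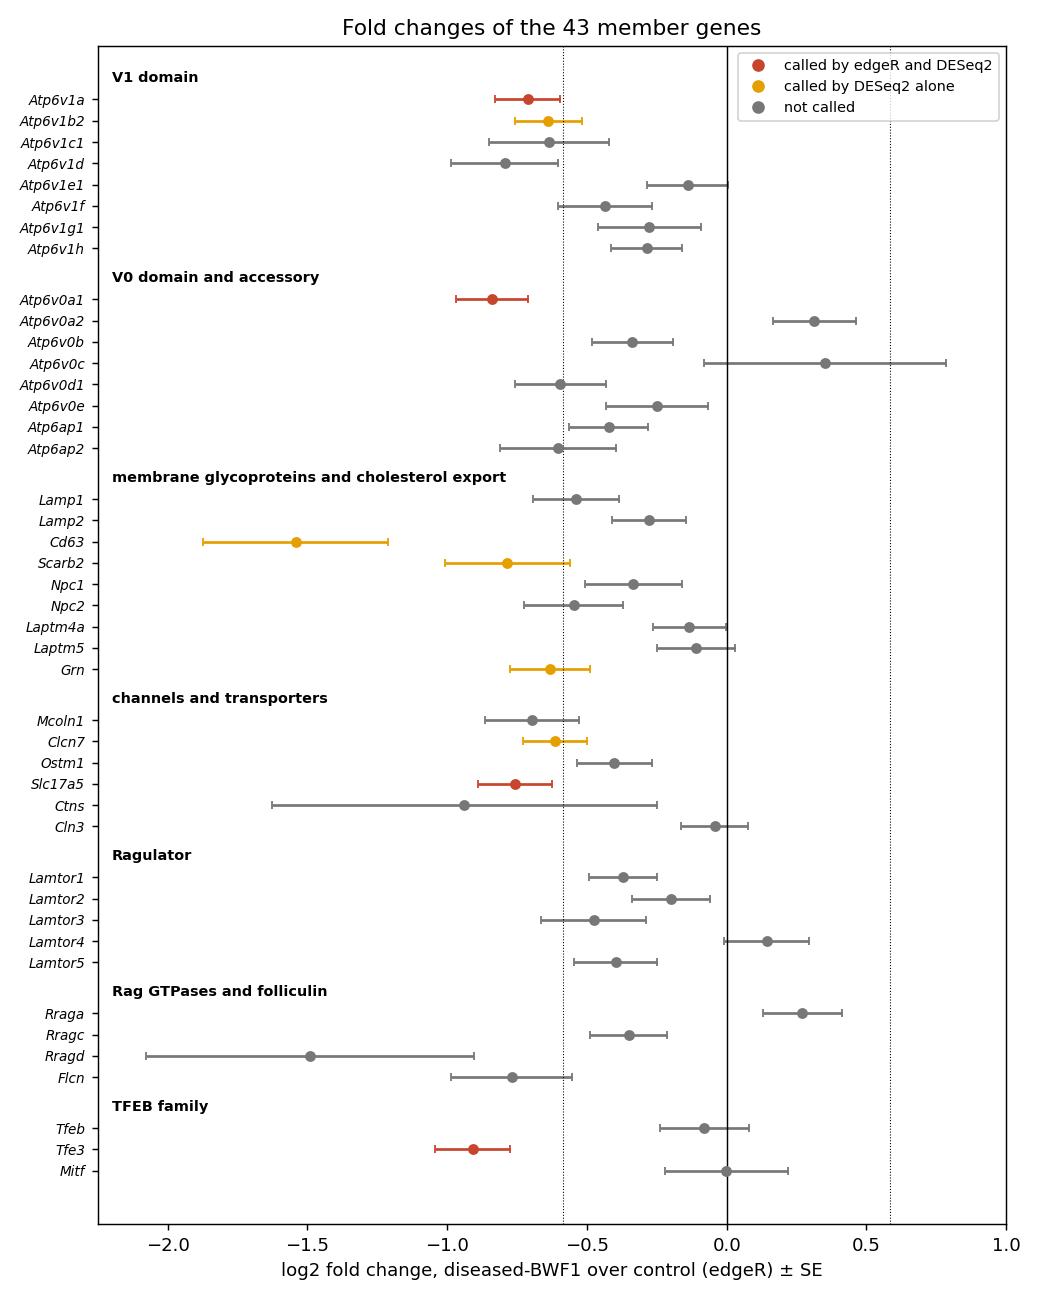
Log2 fold change of each of the 43 genes (x axis, diseased-BWF1 over control, edgeR, bars ± standard error, SE), grouped by role, with dotted lines at a 1.5-fold change. Points lie left of 0 for 39 genes, the 4 red points were called by edgeR and DESeq2, and the 5 orange points by DESeq2 alone.

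In counts, the 43 genes together summed to 53073, 52809 and 60509 normalized counts in control PMs and to 39662, 42111 and 41890 in diseased-BWF1 PMs. All 3 diseased-BWF1 mice lay below all 3 control mice, and the mean of the diseased-BWF1 mice was 0.743 of the control mean. The sum is dominated by a few abundant genes, led by Grn, Laptm5 and Lamp1. The third control mouse, the youngest at 30 weeks, had the highest value of its group in 29 of the 43 members, against 40.8% of all genes tested. Among the diseased-BWF1 mice it was the oldest, the third at 34 weeks, that was highest most often. It was highest of its group in 23 of the 43 members and lowest in 4. Whether age had a part in the order within the groups was not tested.

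The TFEB family differed among its members. Tfe3, one of the 3 factors that bind the CACGTG element, lies on chromosome X from 7762530 to 7775202. It had 824, 703 and 757 normalized counts in control PMs and 423, 432 and 363 in diseased-BWF1 PMs. The highest diseased-BWF1 mouse lay well below the lowest control mouse. On the log2 scale the change was -0.91 (standard error, SE, 0.13, edgeR adjusted p = 0.0304), a 1.88-fold lower level. It was the member called under the most settings, 11 of the 13 fits with all mice. Its counts are the sum of 9 records, and the share of each record moved widely from mouse to mouse: the predicted record with the highest count in the first control mouse, XM_017318453.1, had 327, 213 and 0 normalized counts in the control mice, while the gene's sum was steady.

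Tfeb, the best known member of the family, had 69.5, 80.2 and 67.8 normalized counts in control PMs and 71.8, 63.8 and 70.6 in diseased-BWF1 PMs. The groups overlapped, with a log2 fold change of -0.08 (SE 0.16, edgeR adjusted p = 0.872). With curated mRNA records alone the value for Tfeb turned to 0.69, and that for Tfe3 was -0.95. Mitf had 175, 258 and 175 in control PMs and 154, 228 and 228 in diseased-BWF1 PMs. These values overlapped as well, and the log2 fold change of -0.00067 (SE 0.22) had no stable sign across settings. Tfec, a paralog of the family that is no member of the list, had a log2 fold change of -0.42 (SE 0.29, edgeR adjusted p = 0.593) with overlapping groups.

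Per kilobase of transcript, Tfe3 was the highest of the 4 family genes in the control mice, at 250 normalized counts per kb, followed by Tfec at 57.5, Mitf at 43.8 and Tfeb at 31.0. The Tfe3 share of that family total was 68.1%, 62.5% and 65.4% in control PMs and 54.7%, 58.3% and 47.5% in diseased-BWF1 PMs. The groups did not overlap (exact two-sided permutation test on the log2 ratio of Tfe3 to the other three, difference -0.71, p = 0.1, the smallest that 3 mice against 3 allow). This share was computed after the values were seen. None of the 8 promoters of the TFEB family held CACGTG.

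**Figure D2:**
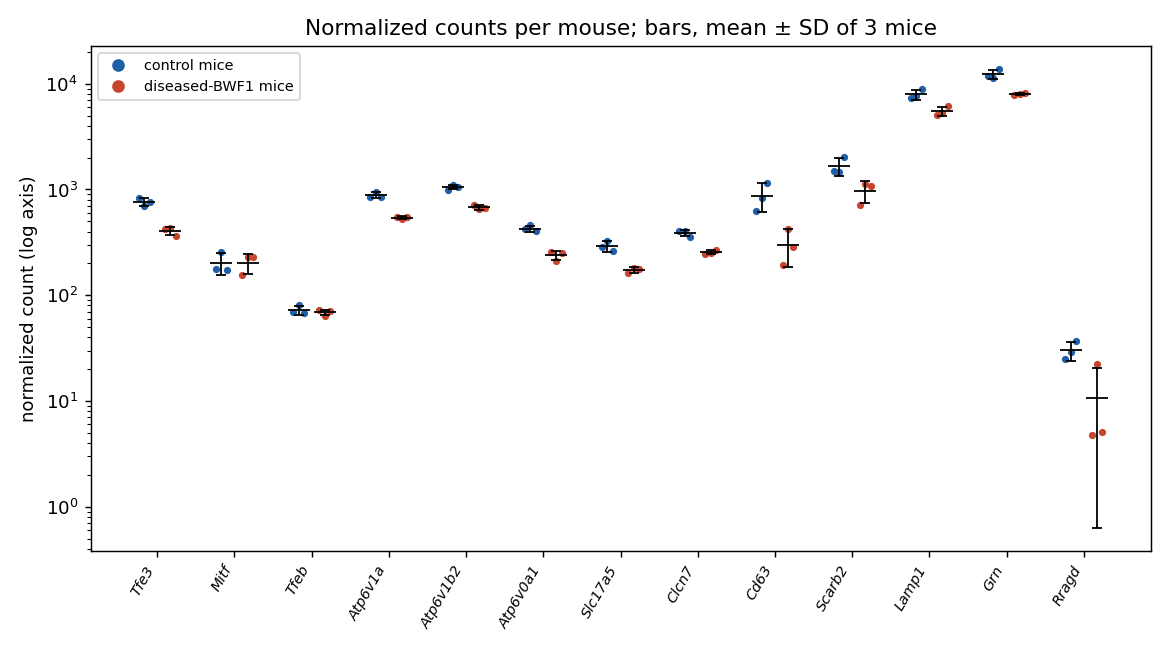
Normalized counts on a log axis for 13 of the genes described in the text, with 1 point per mouse and bars for the mean ± SD of the 3 control mice (blue) and the 3 diseased-BWF1 mice (red). The groups are separate for Tfe3 (363 to 432 against 703 to 824) and mixed for Tfeb and Mitf.

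In the V1 domain, the ATP-hydrolysing part of the pump, all 8 genes had a log2 fold change below 0, with a median of -0.54, and 6 had groups that did not overlap. edgeR called 1 of them lower and DESeq2 called 2. Atp6v1a, the catalytic A subunit, lies on chromosome 16 from 44085402 to 44139702. It had 846, 947 and 858 normalized counts in control PMs and 550, 524 and 548 in diseased-BWF1 PMs. Both groups were tight and far apart. The log2 fold change was -0.71 (SE 0.12, edgeR adjusted p = 0.0431), a 1.64-fold lower level. Its promoter holds 1 copy of CACGTG, in the first sequence shown above.

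Atp6v1b2 encodes the B subunit, which alternates with A in the catalytic ring. It had 997, 1094 and 1061 normalized counts in control PMs and 718, 648 and 664 in diseased-BWF1 PMs. Its groups did not overlap either, with a smaller gap than for Atp6v1a. edgeR did not call it (log2 fold change -0.64, SE 0.12, adjusted p = 0.062), while DESeq2 did (adjusted p = 0.000233). Atp6v1d, the D subunit of the central rotor, had the largest difference in the domain. Its values were 140, 179 and 224 in control PMs and 109, 100 and 104 in diseased-BWF1 PMs, with a log2 fold change of -0.79 (SE 0.19, edgeR adjusted p = 0.124). The diseased-BWF1 mice were close together, while the control mice were spread. The remaining V1 genes had log2 fold changes from -0.63 (Atp6v1c1, the C subunit) to -0.14 (Atp6v1e1, a stalk subunit), and the groups overlapped for Atp6v1e1 and Atp6v1g1. Leaving out each mouse in turn gave -0.75 to -0.36 for Atp6v1c1, the smallest change without the third control mouse, and -0.25 to -0.05 for Atp6v1e1.

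In the V0 domain and its accessory proteins, 6 of 8 genes had a log2 fold change below 0, with a median of -0.38, and 5 had groups that did not overlap. Atp6v0a1, the a1 form of the large membrane subunit through which protons pass, lies on chromosome 11 from 101009422 to 101063719. It had 423, 457 and 402 normalized counts in control PMs and 255, 210 and 253 in diseased-BWF1 PMs. On this sum of 11 records, no diseased-BWF1 mouse came near a control mouse. The fitted log2 change was -0.84 (SE 0.13, edgeR adjusted p = 0.0364), a 1.79-fold lower level, and DESeq2 also called it. The curated record with the most counts had 275, 257 and 254 normalized counts in control PMs and 244, 108 and 181 in diseased-BWF1 PMs. The log2 fold change of that record was -0.56 (SE 0.30). Atp6v0d1, the subunit that joins V0 to the rotor, had a log2 fold change of -0.59 (edgeR adjusted p = 0.172), and the accessory protein genes Atp6ap2 and Atp6ap1 had -0.60 and -0.42. These 3 had groups that did not overlap and were not called.

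The other forms of the a subunit did not follow a1. Atp6v0a2 had 188, 172 and 177 normalized counts in control PMs and 238, 182 and 248 in diseased-BWF1 PMs, with a log2 fold change of 0.31 (SE 0.15, edgeR adjusted p = 0.436). Tcirg1, the a3 form used by osteoclasts and by lysosomes of macrophages, is a paralog that is no member of the list. It had 726, 537 and 613 in control PMs and 812, 701 and 945 in diseased-BWF1 PMs, a log2 fold change of 0.39 (SE 0.17, edgeR adjusted p = 0.391). In both genes the groups overlapped, and neither passed the test. Atp6v0a4, the form of kidney, was at 0 in all 6 mice.

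Per kilobase, Tcirg1 was the most abundant of the 3 a subunit genes in every mouse. The a1 share of their sum was 28.1%, 35.7% and 30.3% in control PMs and 17.2%, 16.7% and 15.2% in diseased-BWF1 PMs. Each diseased-BWF1 mouse thus had a lower a1 share than each control mouse, with means of 31.4% ± 3.93 and 16.4% ± 1.03 (SD, n = 3). The log2 ratio of a1 to the other two differed by -1.22 (two-sided exact permutation p = 0.1, the smallest possible). The Tcirg1 share was 59.9% ± 4.21 and 73.5% ± 1.36 (SD, n = 3). These shares, too, were computed after the values were seen.

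The c subunit, which forms most of the proton-carrying ring, needs care. Its gene Atp6v0c had only 13.2, 14.4 and 16.1 normalized counts in control PMs and 29.3, 10.1 and 16.1 in diseased-BWF1 PMs, and a log2 fold change of 0.35 (SE 0.43). Per kilobase this was the lowest level among the V-ATPase members, at 12.3 in control mice, where Atp6v0b, the other ring subunit, had 574. Its processed pseudogene Atp6v0c-ps2 had 1390, 1054 and 1330 counts in control PMs and 812, 987 and 929 in diseased-BWF1 PMs. In GENCODE, 464 of the 465 bases of the pseudogene transcript (99.8%) are identical to Atp6v0c, and 80.8% of its 75-base sequences, the length of a read, also occur in the gene. The member itself held 1.00% to 3.68% of the counts of the pair. Over all annotated transcripts of the gene, 9.24% of the 75-base sequences occur in the pseudogene. How reads from shared sequence were divided is not given in the sources used here, so the level of Atp6v0c alone is uncertain. The sum of both gave 1163, 1099 and 1543 normalized counts in control PMs and 796, 1010 and 953 in diseased-BWF1 PMs. On that sum the diseased-BWF1 mice all lay below the control mice, with a log2 fold change of -0.47 (SE 0.18, edgeR adjusted p = 0.318), so the direction turned and the gene was still not called. The sum was added as an alternative after the data were seen.

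**Figure D3:**
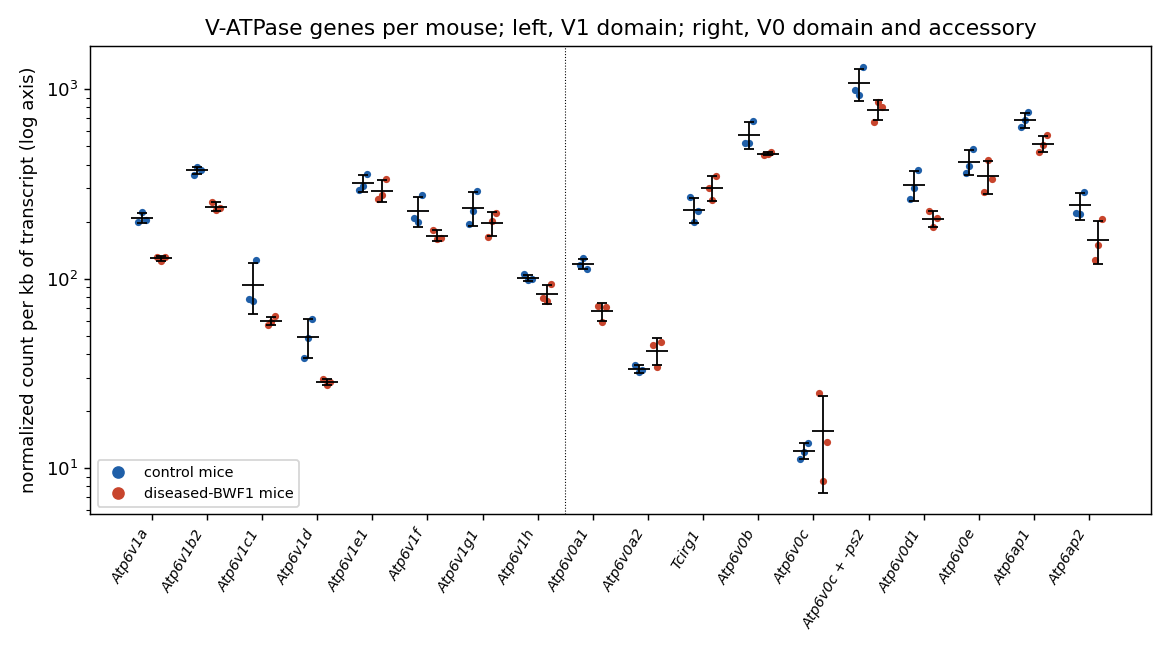
Normalized counts per kb of transcript on a log axis for the 16 V-ATPase genes, Tcirg1 and the sum of Atp6v0c with its pseudogene, with 1 point per mouse and bars for the mean ± SD of 3 mice (control blue, diseased-BWF1 red). Atp6v0a1 is lower and Atp6v0a2 and Tcirg1 are not lower in diseased-BWF1 mice, and Atp6v0c alone lies far below its sum with the pseudogene.

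Of the 20 other V-ATPase genes on a second list (tissue-specific subunit forms, assembly factors and regulators), 13 passed the filter, 8 of them had a log2 fold change below 0, and the median was -0.20. edgeR and DESeq2 each called 1, Atp6v0e2, a form of the small e subunit. It had 27.3, 21.6 and 19.5 normalized counts in control PMs and 0 in all 3 diseased-BWF1 mice. Against a floor of 3 counts per library, the level was at least 7.69-fold lower. The main e subunit gene, Atp6v0e, is far more abundant, at 339 ± 51.1 normalized counts in control PMs and 286 ± 56.5 in diseased-BWF1 mice (SD, n = 3), and its groups overlapped. The subunit forms Atp6v1c2, Atp6v1g2 and Atp6v0d2 had at most 11.5 normalized counts in any mouse.

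All 9 genes of membrane glycoproteins and cholesterol export had a log2 fold change below 0, with a median of -0.54, and 6 had groups that did not overlap. edgeR called none, with 5 at an unadjusted p under 0.05, and DESeq2 called 3. Cd63, a tetraspanin of late endosomes and lysosomes, had the largest difference of all members. It had 626, 837 and 1159 normalized counts in control PMs and 194, 426 and 283 in diseased-BWF1 PMs. Every diseased-BWF1 mouse lay below every control mouse, but both groups were more spread than those of Atp6v1a. The log2 fold change was -1.54 (SE 0.33, edgeR adjusted p = 0.0864). Of its annotated 75-base sequences, 6.47% also occur in a pseudogene.

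Scarb2 encodes LIMP-2, an abundant glycoprotein of the lysosome membrane. It had 1503, 1460 and 2049 normalized counts in control PMs and 711, 1127 and 1079 in diseased-BWF1 PMs. The groups did not overlap, and the log2 fold change was -0.78 (SE 0.22, edgeR adjusted p = 0.183). Grn, the precursor of the lysosomal granulins, was the most abundant member by count, with 11737, 11377 and 13816 in control PMs and 7843, 7933 and 8110 in diseased-BWF1 PMs. Its diseased-BWF1 mice were close to one another, and the log2 fold change was -0.63 (SE 0.14, edgeR adjusted p = 0.105).

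Lamp1 and Lamp2, the main glycoproteins that line the lysosome membrane, had log2 fold changes of -0.54 and -0.28, both with groups that did not overlap. DESeq2 gave Lamp1 an adjusted p of 0.0222, but its change was under 1.5-fold. Without the threshold on fold change DESeq2 would call 10 members lower, against 2.34% of all genes. Npc2, the lumenal cholesterol carrier, had -0.55 (edgeR adjusted p = 0.244), and Npc1, the membrane protein that takes cholesterol from it, had -0.33 with overlapping groups. Laptm4a and Laptm5 had -0.13 and -0.11, with overlapping groups and edgeR adjusted p of 0.722 and 0.789. For Laptm5, curated mRNA records alone gave -0.65 (SE 0.46, edgeR adjusted p = 0.708).

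All 6 channels and transporters had a log2 fold change below 0, with a median of -0.66, and 4 had groups that did not overlap. Slc17a5, the sialic acid exporter sialin, lies on chromosome 9 from 78536487 to 78588045. It had 289, 328 and 261 normalized counts in control PMs and 161, 180 and 179 in diseased-BWF1 PMs. The groups were apart, and the log2 fold change was -0.76 (SE 0.13, edgeR adjusted p = 0.0481), a 1.69-fold lower level. This was the call nearest to the threshold, and it held in 5 of the 13 fits with all mice. Its curated record NM_172773.3 alone had 254, 306 and 203 normalized counts in control PMs and 161, 180 and 179 in diseased-BWF1 PMs. The log2 fold change of that record was -0.55 (SE 0.18), under 1.5-fold. The other records of Slc17a5 with a count were predicted ones, and they had counts in control mice only. Of its annotated 75-base sequences, 4.19% also occur in other genes.

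Clcn7 encodes the chloride-proton exchanger of the lysosome, and Ostm1 its partner subunit. Clcn7 had 405, 406 and 355 normalized counts in control PMs and 246, 251 and 266 in diseased-BWF1 PMs. No mouse of one group entered the range of the other, and the log2 fold change was -0.61 (SE 0.11), which DESeq2 called (adjusted p = 0.00992) and edgeR did not (adjusted p = 0.0609). This DESeq2 fit was the 1 of 13 fits with all mice that called Clcn7, and the values ran from -0.63 to -0.49. Its curated records differed, with -0.01 (SE 0.43) for NM_011930.4 and -1.79 (SE 0.65) for NM_001317404.1. Ostm1 had -0.40 (edgeR adjusted p = 0.258), also with separate groups. Mcoln1, the calcium release channel TRPML1, had 141, 154 and 195 in control PMs and 95.4, 97.2 and 110 in diseased-BWF1 PMs, a log2 fold change of -0.70 (edgeR adjusted p = 0.121).

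Ctns, the cystine exporter, had the largest fitted difference of the transporters, -0.94 (SE 0.69), and it rested on a single mouse. Its normalized counts were 22.3, 21.6 and 125 in control PMs and 26.4, 28.4 and 32.3 in diseased-BWF1 PMs. Without the third control mouse the log2 fold change was 0.40. Cln3, the Batten disease protein, had a log2 fold change of -0.04 (SE 0.12) on the sum of all records, with overlapping groups, and 0.63 with curated mRNA records alone.

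In the Ragulator complex, which anchors the Rag GTPases to the membrane, 4 of 5 genes had a log2 fold change below 0, with a median of -0.37, and 3 had groups that did not overlap. edgeR and DESeq2 called none of them, with 3 at an unadjusted p under 0.05 in edgeR. Lamtor3 had the largest difference, with 198, 256 and 312 normalized counts in control PMs and 176, 170 and 206 in diseased-BWF1 PMs. The groups overlapped in 1 mouse of each, and the log2 fold change was -0.48 (SE 0.19, edgeR adjusted p = 0.339). Lamtor4 was the exception in direction, with a log2 fold change of 0.14 (SE 0.15), which was -0.0011 without the second diseased-BWF1 mouse.

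Of the Rag GTPases, which work as pairs of RagA or RagB with RagC or RagD, Rraga was the only member whose diseased-BWF1 mice all lay above the control mice. It had 91.0, 110 and 98.8 normalized counts in control PMs and 121, 114 and 127 in diseased-BWF1 PMs, with a log2 fold change of 0.27 (SE 0.14, edgeR adjusted p = 0.481). Its partner Rragc had -0.35 (edgeR adjusted p = 0.335) with separate groups on the other side. Rragb, the paralog of Rraga, was at 0 in all 6 mice.

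Rragd, the gene for RagD, had 24.8, 28.8 and 36.7 normalized counts in control PMs and 4.72, 22.3 and 5.04 in diseased-BWF1 PMs. The groups did not overlap, but the second diseased-BWF1 mouse lay close to the lowest control mouse and the other two far below. The log2 fold change was -1.49 (SE 0.59, edgeR adjusted p = 0.337), and it ranged from -2.59 to -1.13 as each mouse was left out. At 5 to 32 counts per library, it is among the least precise values of the list. Flcn, folliculin, which activates RagC and RagD, had 259, 262 and 352 in control PMs and 145, 145 and 224 in diseased-BWF1 PMs. Its groups did not overlap, with a log2 fold change of -0.77 (SE 0.22, edgeR adjusted p = 0.179).

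On a list of 31 other lysosome membrane genes, 20 had a log2 fold change below 0, with a median of -0.15, edgeR called 1 lower and DESeq2 called 4 lower, and neither called any higher. The edgeR call was Abcd4, a transporter of vitamin B12, with 145, 156 and 152 normalized counts in control PMs and 62.3, 76.0 and 64.5 in diseased-BWF1 PMs (log2 fold change -1.16, SE 0.15, edgeR adjusted p = 0.0192). DESeq2 added Slc36a1, a proton-coupled amino acid transporter, Plekhm1, an adaptor for lysosome fusion, and Mfsd1, with log2 fold changes of -0.93, -0.78 and -0.67 in edgeR. Laptm4b, the paralog of Laptm4a, had -0.24 with overlapping groups.

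Of 31 other nutrient-sensing genes that passed the filter, 18 had a log2 fold change below 0, with a median of -0.09. Neither edgeR nor DESeq2 called any of them, and 2 were lower at an unadjusted p under 0.05 in edgeR. The lumenal hydrolases and their cofactors had values closer to those of the members: of 49 genes tested, 40 had a log2 fold change below 0, with a median of -0.40, and in 30 every diseased-BWF1 mouse lay below every control mouse. edgeR called 6 of them lower and 0 higher, and DESeq2 called 16 lower. Among the 6 were, with their log2 fold changes, Glb1 (-2.45), Dpp7 (-1.62), Dnase2a (-1.14), Galc (-1.05) and Naglu (-0.85), which break down glycolipids, glycans, peptides or DNA. These lists were also drawn up with earlier results of these data known.

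**Figure D4:**
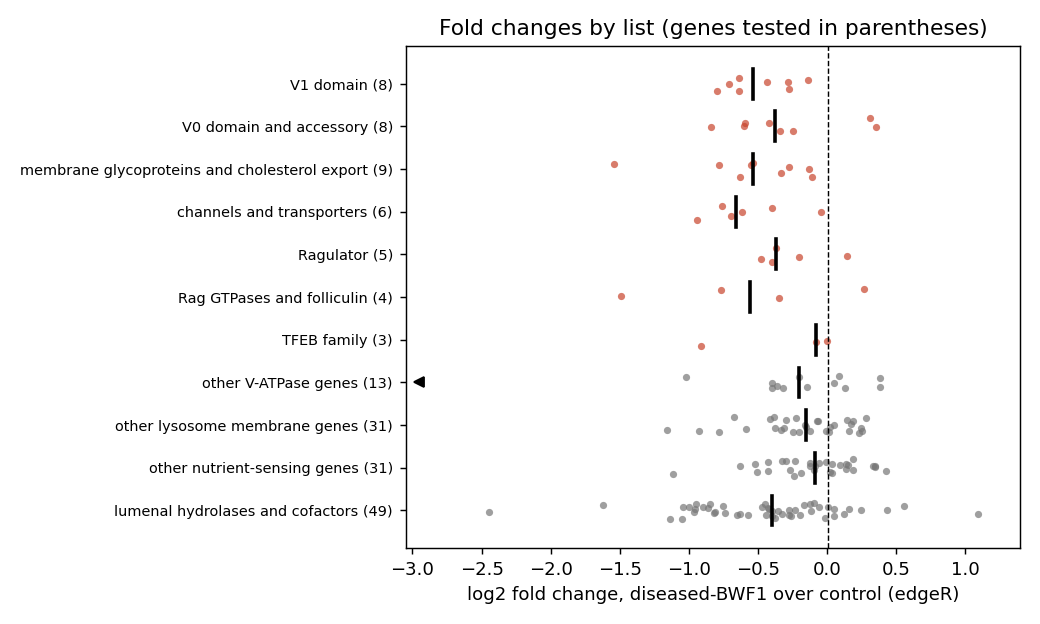
Log2 fold change of each gene tested (x axis, diseased-BWF1 over control, edgeR) by list, with the 7 member subgroups in red, 4 other lists in grey, a black bar at each median and a dashed line at the median of all genes. Medians run from -0.66 (channels and transporters) to -0.08 (TFEB family) in the members, and the arrowhead marks Atp6v0e2, which lies beyond the axis.

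The members with CACGTG in their promoter did not stand apart in level of change. The 11 members with it had a median log2 fold change of -0.37, with 10 below 0, and the 25 members whose promoters lacked it had a median of -0.44, with 23 below 0. Lamp1 with 4 copies had -0.54, Lamtor4 with 2 copies had 0.14 and Cln3 with 2 copies had -0.04. The promoters of Tfe3, Atp6v0a1, Slc17a5, Cd63, Scarb2 and Grn held none. The match describes these letters in this window only.

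At the level of single transcript records, 68 records of the members were tested and none was called by edgeR, where 0.0639% of all 20332 records were called. At an unadjusted p under 0.05, 22 member records were lower and 0 higher, against 3.49% of all records lower. The lowest adjusted p was 0.151, for NM_007508.5, the main record of Atp6v1a, which had 832, 926 and 843 normalized counts in control PMs and 550, 524 and 548 in diseased-BWF1 PMs. A pair of member records had at least 10 counts in each control mouse and 0 in each diseased-BWF1 mouse, out of 76 records of all genes with that pattern. They were XM_006521721.2 of Atp6v1a, with 17, 21 and 13 counts in the control mice, and XR_001782075.1 of Clcn7, with 77, 22 and 35. The opposite pattern was found for 92 records, none of them of a member. The single record of Atp6v0e2 also belongs to the 76. These records were singled out after their values were seen.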

How the data were processed

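The authors sequenced paired-end stranded mRNA libraries and deposited, for each mouse, unnormalized estimated counts, as whole numbers, on 107193 RefSeq transcript records. The submitters' processing notes name Salmon 0.8.0, DESeq2 and GRCm38.p6. The counts of the 86466 records matched to a RefSeq gene of that build were summed per gene and held 89.1% to 93.0% of each library, and the 20727 unmatched records were not used.

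Genes were tested in R 4.3.3 with edgeR 4.0.16 (filterByExpr, TMM, glmQLFit and glmQLFTest, no covariate). Single-gene counts were divided by size factors from DESeq2 1.42.0, which ranged from 0.871 to 1.21. Code was tested on simulated data. Alternatives were DESeq2, other normalizations and filters, a replicate block, age, robust dispersion, limma-voom (limma 3.58.1), curated records, single records and each mouse left out. Curated records with DESeq2 and the sum of Atp6v0c with its pseudogene were added after seeing the data.

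Members and lists were chosen with earlier results of these data known. Given in full were members called by edgeR or DESeq2, the TFEB family and the largest change in each subgroup. Of other lists, called genes (at most 6 by smallest p) and paralogs of members were named. Some genes that this rule or the marker lists cover, including genes that differed between the groups, are not reported here. Transcript lengths and shared 75-base sequences came from GENCODE vM21, and a length is the mean over the curated records of a gene, weighted by their counts.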

Additional observations from a re-analysis of the deposited data

How the results depend on the processing

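Over all genes, the 42 calls higher and 86 lower in diseased-BWF1 mice became 127 and 242 with DESeq2, 89 and 170 with no low-count filter, 27 and 57 with at least 10 counts in every library, 9 and 7 with curated mRNA records alone, and 96 and 163 with those records and DESeq2 (added after seeing the data). With age as a covariate, 53 genes were lower. Leaving out each mouse gave 11 to 22 higher and 10 to 29 lower. The 4 members called lower became 9 with DESeq2, 1 (Tfe3) with age, 0 with curated records, 0 with single records and 0 to 0 with each mouse left out, and other settings gave 3 to 6. No setting called a member higher. With CPM, 27 in place of 28 members had every diseased-BWF1 mouse below. Same-numbered mice are different animals, and the numbers were not taken as pairs. The correlations of their deviations were 0.117, 0.00556 and 0.157, against -0.144 to 0.0573 between mice of unlike number. With the replicate block, 18 genes were higher, 20 lower and 0 members lower. Mice numbered 1 and 3 correlated best with their own number in the other group, and those numbered 2 did not.

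Signs turned for Atp6v0c (-0.47 summed with its pseudogene, -0.15 to 0.65 with each mouse left out, the former without the first diseased-BWF1 mouse), Ctns (-1.34 to 0.40 with each mouse left out, the latter without the third control mouse), Cln3 (0.63 and 0.65 with curated records in edgeR and DESeq2, -0.10 to 0.0397 with each mouse left out, the latter without the third control mouse), Lamtor4 (-0.0011 without the second diseased-BWF1 mouse, up to 0.23 without the first), Tfeb (0.69 and 0.70 with curated records, -0.12 to 0.00305 with each mouse left out, the latter without the second control mouse) and Mitf (0.0035 with DESeq2, 0.0068 with RLE, 0.0028 with age, 0.0016 with limma-voom, 0.018 and 0.021 with curated records, -0.10 to 0.22 with each mouse left out, the latter without the second control mouse, 0.16 without the first diseased-BWF1 mouse). The cause was not tested. Leaving out a mouse turned or moved the log2 fold change by over 1.5 times in 18 of the 43 members, and other settings in 6, none of them among the 4 called by edgeR. Of the values of single members under alternatives, 706 kept their direction and side of the threshold, 40 lost the call and 9 gained it. With 3 mice per group and 3629901 to 5003360 counts, low genes such as Rragd and Ctns were measured least precisely.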
